A study of Mus musculus with 2 samples.

Results

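Monocyte-like cells of mouse ovarian tumors growing at an abraded peritoneal wall were followed in 2 single-cell RNA sequencing libraries. The cells were picked by their own transcripts, counted as unique molecular identifiers (UMIs, each standing for 1 captured mRNA molecule). A member held at least 10 UMIs of Lyz2, at least 2 UMIs of Ly6c2, Vcan and Ccr2 together, at most 4 of C1qa, C1qb and C1qc, under 20 of S100a8 and S100a9, and none of Flt3, Cd209a, Cd3d, Cd3e or Cd3g. Of 15156 cells kept in both libraries, 408 were members. The control IgG library gave 268 of them among 8770 cells, and the library from mice given the Activin A neutralizing antibody gave 140 among 6386.

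Female C57BL/6 mice, 6 to 8 weeks old, had their peritoneal wall abraded and received syngeneic ovarian cancer cells of the genotype p53-/-, myc, Hras in the peritoneal cavity. From the next day they were injected into the same cavity every day with either control IgG or an antibody that neutralizes Activin A, a growth factor of the TGFβ family encoded by Inhba. The labels give 7 control mice, 8 antibody mice and 10 days of treatment, whereas the study's own text gives another number of mice for its sequenced groups and another duration. Tumors of a group were pooled into 1 library without selecting any cell type, after erythrocytes and dead cells had been depleted. With 1 library per group no test was possible, so every interval below covers counting error only, and treatment cannot be told apart from any other difference between the 2 pools. The comparison asks what neutralizing Activin A does to this arm of the myeloid infiltrate.

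Monocytes are short-lived blood cells made in the bone marrow. The classical kind, marked in mice by high Ly6C, leaves the marrow and enters inflamed or growing tissue by following ligands of the chemokine receptor CCR2. In tissue it can lose its monocyte transcripts and take on those of macrophages, such as the complement component C1q and the lipid carrier apolipoprotein E, or load its surface with MHC class II and present antigen. The non-classical kind patrols the inside of vessels and depends on the nuclear receptor Nr4a1. In tumors, cells of this lineage are known both for restraining T cells and for chemokines that draw them in.

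The label was checked against its 5 markers, of which only Plac8 was left out of the rule. Plac8, a small protein abundant in Ly6C-high monocytes, was detected in 94.4% of control members and 98.6% of antibody members, with a median of 17 and 18 UMIs per cell and a highest value of 61 and 51. It was also found in 71.6% and 56.6% of C1q macrophages and 57.7% and 57.4% of T cells, so a UMI of it alone marks no monocyte. Of the genes that chose the cells, Lyz2, the myeloid lysozyme, ranged from 10 to 477 UMIs around a median of 61.5 in the control library and from 10 to 285 around 45 in the antibody library. Ccr2 was found in 94.8% and 94.3% of members, Ly6c2 in 73.1% and 77.1%, and Vcan, a matrix proteoglycan of classical monocytes, in 27.6% and 50%. Ly6c2 alone does not mark one either, since 46.6% and 40.3% of the T cells carried it. C1qb was the C1q gene seen most often among members, in 11.9% and 7.86% of them. Of the 17 genes on the neutrophil list, Camp, Ngp and Retnlg were at 0 UMIs in every member, while the list summed to 165 and 171 CPM (UMIs per 1000000), led by Csf3r, with 10 and 5 members at 5 or more of its UMIs. The values of the genes in the rule describe the cells without testing their name.

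The limits cut through a continuum in places. For Ly6c2, Vcan and Ccr2 together, 26 control and 6 antibody members held exactly 2 UMIs, and 16 and 7 otherwise eligible cells held 1. At the C1q limit, 5 and 3 members held 4 UMIs, and 12 and 4 otherwise eligible cells held 5. For Lyz2, 7 and 3 members held 10 UMIs, and 4 and 7 such cells held 9. No cell lay at 19 or 20 UMIs of S100a8 and S100a9. A single Flt3 or Cd209a UMI kept out 14 and 12 cells, and a single Cd3 UMI 54 and 11. The members had a median of 6365.5 UMIs and 2379.5 genes in the control library and 5586.5 UMIs and 2172.5 genes in the antibody library, and no cell barcode was shared between the 2 sets of members, against 19 shared among all kept cells.

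The monocyte-like cells made up 3.06% of all kept control cells (95% exact Clopper-Pearson interval 2.71 to 3.44%) and 2.19% of all kept antibody cells (1.85 to 2.58%). The log2 ratio of these shares, antibody over control, was -0.48 (-0.78 to -0.18). Set against Lyz2-high cells alone, meaning all cells with at least 10 Lyz2 UMIs and no Cd3 UMI, the direction turned: 24.9% of 1078 such cells in the control library (22.3 to 27.6%) and 39.0% of 359 in the antibody library (33.9 to 44.3%) were monocyte-like, a log2 ratio of 0.65 (0.34 to 0.95). Most other Lyz2-high cells of the control library were C1q macrophages, which hold more than 4 C1q UMIs, pass the limits on Lyz2, S100a8 and S100a9, Flt3 and Cd209a, and Cd3, and need no UMI of Ly6c2, Vcan or Ccr2. They numbered 705 (8.04% of all cells) and 145 (2.27%), a log2 ratio of -1.82. Monocyte-like cells were thus scarcer in the antibody library among all cells but stood in nearly equal number to C1q macrophages there, 140 beside 145, where the control library held 268 beside 705. Cells over the S100a8 and S100a9 limit, 1 and 19 in number, and cells with at least 2 UMIs of Cd209a and Flt3 together, 19 and 13, were few. Shares of a pooled suspension also depend on how well each cell type survived dissociation, which was not tested.

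**Figure D1:**
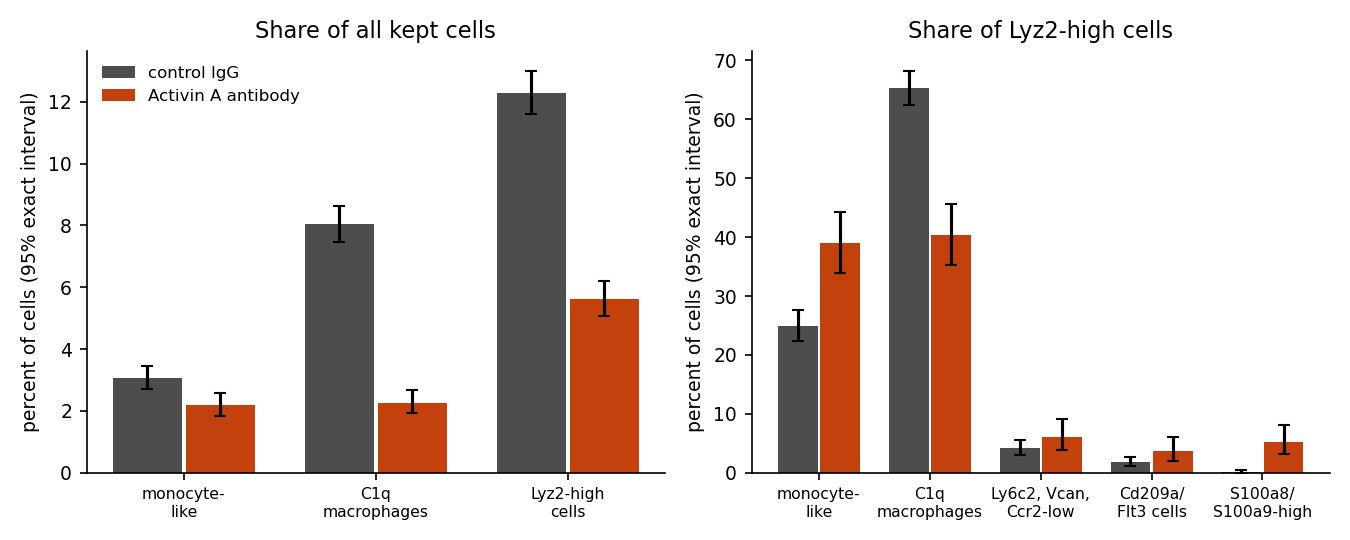
Share of monocyte-like cells and of the other Lyz2-high classes in each library, as a percent of all kept cells and as a percent of Lyz2-high cells, with bars for the share and whiskers for the 95% exact interval. The monocyte-like bar is lower with the antibody among all cells (2.19% beside 3.06%) and higher among Lyz2-high cells (39.0% beside 24.9%).

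MHC class II content varied widely among the members of each library. These molecules present peptides to CD4 T cells. H2-Aa, H2-Ab1 and H2-Eb1 encode their chains, Cd74 the invariant chain that escorts them, H2-DMa and H2-DMb1 the chaperone that loads the peptide, and Ciita the coactivator that switches the whole group on. In most tissues Ciita acts through a shared promoter module, whose Y box is bound by NF-Y and carries the core GATTGG. To show that module, the 120 bases before the start of 3 of these genes are printed from RefSeq (GRCm38.p6), 5′ to 3′ on the gene's own strand, with capitals for GATTGG on either strand and for ACNGATG, letters that lie in the neighbouring X box.

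H2-Aa, chr17:34287824-34287943, minus strand: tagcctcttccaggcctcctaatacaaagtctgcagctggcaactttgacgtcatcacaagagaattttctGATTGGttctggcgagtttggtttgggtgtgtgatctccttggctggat

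H2-Eb1, chr17:34305747-34305866, plus strand: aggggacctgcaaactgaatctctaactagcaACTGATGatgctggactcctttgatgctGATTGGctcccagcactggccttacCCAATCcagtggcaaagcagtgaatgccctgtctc

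H2-DMb1, chr17:34153071-34153190, plus strand: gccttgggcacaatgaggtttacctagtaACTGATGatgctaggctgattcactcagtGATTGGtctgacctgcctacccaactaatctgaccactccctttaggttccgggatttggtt

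The GATTGG core began 49 bases before the start of H2-Aa, 60 and 35 bases before that of H2-Eb1 and 62 bases before that of H2-DMb1. ACNGATG began 88 bases before the start of H2-Eb1 and 91 before that of H2-DMb1, with 21 and 22 bases between it and the core, and was not in the H2-Aa window. Over 32851 promoters of the same length, 9.67% held GATTGG on either strand and 3.89% held ACNGATG on either strand. Of the 10 genes on the MHC class II list, 7 had an entry in the RefSeq table. The entries of H2-DMb2, H2-Oa and H2-Ob also held GATTGG, that of H2-DMb2 with ACNGATG 22 bases upstream of it, while both H2-DMa entries held neither motif. A match describes the letters and does not show that a factor was bound.

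Levels of all 7 MHC class II genes with enough UMIs were lower in antibody members, none of them past 2-fold. H2-Ab1 was at 4444 CPM (95% exact Poisson interval 4349 to 4541) in control members and 2725 (2617 to 2836) in antibody members. H2-Aa was at 4416 CPM and 2606 CPM, and Cd74 at 13590 and 8529. Differences are given throughout as the log2 ratio of (CPM + 10), antibody over control. This was -0.70 for H2-Ab1, -0.76 for H2-Aa, -0.67 for Cd74, -0.68 for H2-Eb1, -0.54 for H2-DMa, -0.88 for H2-DMb1 and -0.63 for Ciita, which stood at 162 and 101 CPM. The median over the 7 genes was -0.68, beside a median of 0.02 over all 6256 genes with at least 50 UMIs in the members, of which 3305 were above 0 and 2951 below. In C1q macrophages of the same libraries the median of the list was -0.22 and in T cells -0.39. Free RNA, read from barcodes with under 100 UMIs, was lower too, with ratios of -0.75 for H2-Ab1 and -0.88 for Cd74, and a UMI of H2-Ab1 was found in 21.2% and 7.5% of T cells beside 88.1% and 69.3% of members. Over 24 alternatives, including a subtraction of free RNA, the median of the list in members lay between -0.76 and -0.58. That subtraction rested on 0 control and 6 antibody haemoglobin UMIs in members, too few to settle the part of free RNA in their levels.

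Cell by cell, the libraries differed more, as a ratio, at the lower quartile than at the median or the upper quartile. Summed over the list, control members held a median of 282 MHC class II UMIs per 10000 UMIs of the cell, with quartiles of 128 and 401. Antibody members held a median of 90.6, with quartiles of 11.1 and 335. Under a limit of 50 per 10000, set after the distribution had been seen, fell 41 of 268 control members (15.3%, 11.2 to 20.2%) and 62 of 140 antibody members (44.3%, 35.9 to 52.9%). The remaining 227 and 78 members had a median of 321 and 305 per 10000, which the limit itself fixes in part. No gap marked the limit: 6 and 9 members lay between 40 and 60, and under a limit of 100 the shares were 23.1% and 51.4%. In C1q macrophages the share under 50 was 2.55% (1.52 to 4.01%) and 13.1% (8.08 to 19.7%). Members under the limit were somewhat shallower, with a median of 5233 and 5035.5 UMIs, than those above it, with 6619 and 5975. When every cell was thinned to 3000 UMIs, H2-Ab1 was still detected in 86.6% of control and 61.9% of antibody members.

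**Figure D2:**
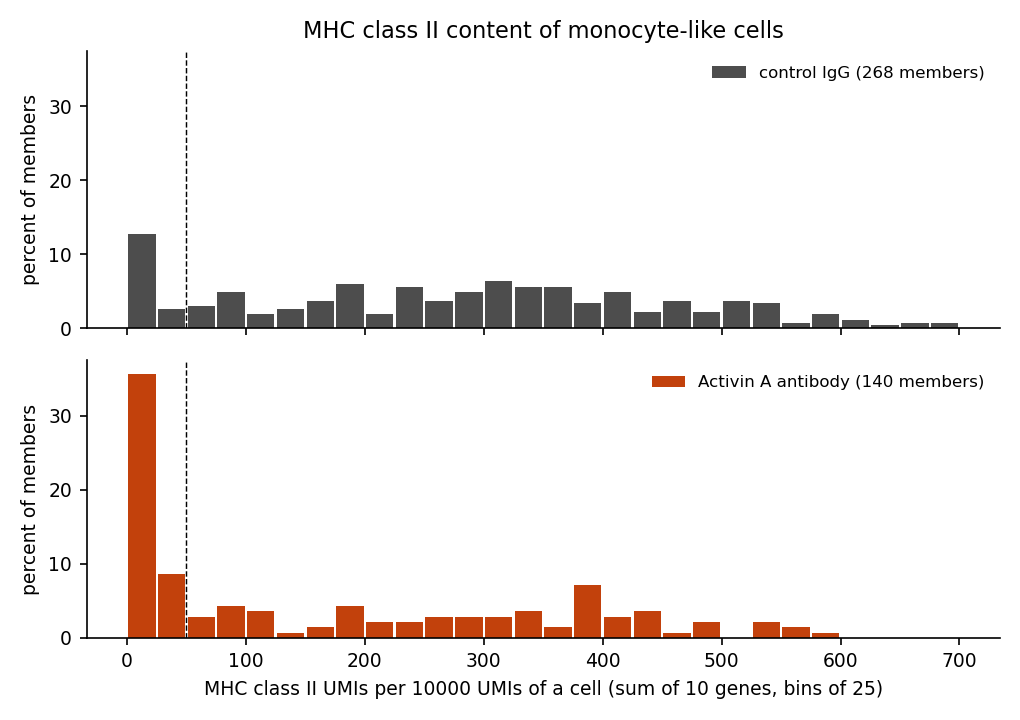
Distribution of MHC class II UMIs per 10000 UMIs of a cell (x axis, sum over 10 genes in bins of 25) among control IgG members (top) and Activin A antibody members (bottom), as a percent of members, with the dashed line at 50. Of the control members 15.3% lie under the line, and of the antibody members 44.3%.

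Vcan and Plac8 were higher in members with little MHC class II in both libraries, although Vcan is a gene of the rule. Vcan was at 306 CPM in the control members under the limit and 67.8 CPM in those above it, and at 383 and 169 CPM in the antibody library. For Plac8 the levels were 3328 under and 2540 above the limit in the control library, and 3472 and 2523 in the antibody library. As a ratio, the difference between the ranges was smaller for Plac8 than for Vcan in both libraries. Apoe, in contrast, was at 1726 CPM under and 3457 CPM above the limit in control members, and at 619 and 1995 CPM in antibody members. The share of members under the limit differed between the libraries, and its part in the differences below was not tested. Levels within the 2 ranges are given below for several genes.

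Over all 6256 genes, 46 (0.735%) were at least 2-fold higher in antibody members and 57 (0.911%) at least 2-fold lower. Single cells made many of these differences. In 27 of the 46 higher genes more than 50% of the UMIs of the antibody members came from 1 cell, and in 16 of the 57 lower genes the same held for 1 control cell. Leaving those out, 19 genes (0.304%) were higher and 41 (0.655%) lower. When instead the member with the most UMIs of a gene was dropped from each library, 14 genes (0.224%) were higher and 67 (1.07%) lower. For comparison, 100 of 8807 genes (1.14%) were higher and 15 (0.17%) lower in C1q macrophages, and 1 of 13499 (0.00741%) and 14 (0.104%) in T cells. In monocyte-like cells the balance between higher and lower genes turned with the rule, with 64 higher and 56 lower at a Lyz2 minimum of 5 UMIs and 55 and 46 at a minimum of 20.

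**Figure D3:**
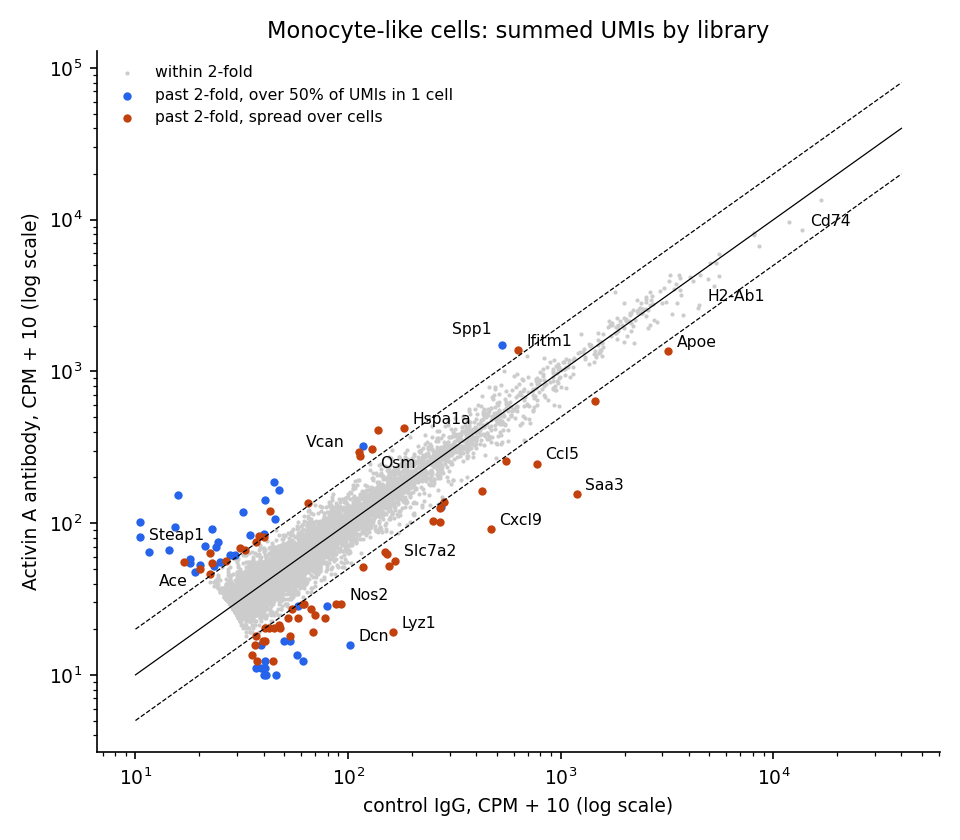
Level of each of 6256 genes in monocyte-like cells, as CPM + 10 in the control IgG library (x axis, log scale) and the Activin A antibody library (y axis, log scale), with dashed lines at 2-fold. Red points are past 2-fold with UMIs spread over cells and blue points have over 50% of their UMIs in 1 cell, among them Spp1, Steap1 and Dcn.

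Nos2 and Slc7a2, which serve arginine use, were lower in antibody members, although 11 of the 18 genes tested on the list of arginine use and T cell suppression were above 0 and its median was 0.03. Nos2 (chr11:78920787-78960254, plus strand), the inducible nitric oxide synthase that makes nitric oxide from arginine, was at 82.8 CPM (70.2 to 96.9) in control members and 19.4 CPM (11.3 to 31.0) in antibody members, a log2 ratio of -1.66, and was found in 13.4% and 3.6% of members. In the antibody library 64.7% of its UMIs came from 1 cell, and without the top cell of each library the ratio was -2.29. Slc7a2, a transporter that brings arginine into the cell, was at 157 CPM (139 to 176) and 46.7 CPM (33.5 to 63.4), a ratio of -1.56, and was found in 27.2% and 10.0% of members.

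Both genes were also lower in C1q macrophages, with ratios of -1.25 for Nos2 and -0.56 for Slc7a2, and in free RNA, with -0.74 and -0.65. Within the MHC class II ranges, Nos2 was at 95.6 and 4.28 CPM above the limit, but at 10.7 and 36.6 CPM under it, where it rested on 3 and 15 UMIs, and the difference between the ranges was not tested. Cd274, which encodes the T cell inhibitory ligand PD-L1, differed by -0.04, with 269 CPM (246 to 294) and 262 CPM (229 to 298), and Tgfb1 by 0.04, with 250 and 257 CPM.

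The acute phase protein Saa3 (chr7:46711998-46715700, minus strand), a serum amyloid made by macrophages and stromal cells in inflamed tissue, stood among the lowest of all genes. It was at 1181 CPM (1132 to 1232) in control members and 145 CPM (121 to 172) in antibody members, a log2 ratio of -2.94. The level was uneven within each library: 34.3% of control and 18.6% of antibody members held a UMI, and the richest 10% of the control members held 93.5% of all Saa3 UMIs. In C1q macrophages the ratio of levels was -0.17 and in T cells -0.07, but the share of cells with a UMI was lower outside the members too, at 54.9% and 31.7% in C1q macrophages and 18.1% and 7.69% in T cells. After thinning to 3000 UMIs it was 25.7% (20.5 to 31.4%) and 14.9% (9.36 to 22.1%) in members, and 44.7% (40.9 to 48.5%) and 26.1% (19 to 34.2%) in C1q macrophages. Above the MHC class II limit, Saa3 was at 1351 and 57.7 CPM, and under it at 228 and 244 CPM, so the lower level was seen above the limit, and the difference between the ranges was not tested. Its size also hung on the limits of the rule, with -1.001 at a Lyz2 minimum of 5 UMIs and -1.46 with up to 49 UMIs of S100a8 and S100a9 allowed. Lyz1, the other lysozyme gene, was at 152 CPM (135 to 171) and 9.11 CPM (3.93 to 18), in 10.4% and 3.6% of members. Lyz1 and Lyz2 are near-identical, so reads may be divided between them, and the level of Lyz1 is uncertain for that reason. On the list of 18 antimicrobial and acute phase genes, 4 were at least 2-fold lower and none higher, with a median of -0.17. The other two, Retnla (36 and 0 CPM) and Slpi (262 and 117 CPM), owed 83.6% and 78.1% of their control UMIs to 1 cell.

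Among 20 tested cytokines and chemokines, Cxcl9 and Ccl5 were at least 2-fold lower in antibody members, and Osm and Ccl24 at least 2-fold higher. Cxcl9 (chr5:92321347-92328079, minus strand), an interferon-γ induced ligand of the T cell receptor CXCR3, was at 460 CPM (430 to 492) in control and 80.9 CPM (63.2 to 102) in antibody members, a log2 ratio of -2.37. It was detected in 26.5% and 14.3% of members, and in 19.2% and 10.4% after thinning. The richest 10% of members held 84.9% of the Cxcl9 UMIs in the control library and 91.5% in the antibody library. In C1q macrophages Cxcl9 differed by -0.16, with a UMI in 36% and 29.7% of the cells. Within the MHC class II ranges it was at 509 and 118 CPM above the limit and at 185 and 39.0 CPM under it, lower in the antibody library in both. Cxcl10, another CXCR3 ligand, differed by only -0.36, with 242 and 187 CPM, and Cxcl16 by -0.82, with 195 and 106 CPM.

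Ccl5, a chemokine that attracts T cells and monocytes, was at 762 CPM (723 to 803) and at 237 CPM (206 to 271), which gave a log2 ratio of -1.645. Among members, C1q macrophages and T cells, the T cells carried Ccl5 most often, with a UMI in 88.3% and 87.5% of them. The share was 71.6% and 57.2% in C1q macrophages and 52.2% and 30.7% in members. Members with 5 or more UMIs over the whole list of T and NK cell genes numbered 45 in the control library and 8 in the antibody library. When cells with 5 or more UMIs of any other cell type's list were removed, the Ccl5 ratio was -0.61, a removal that takes out Ccl5-rich members by construction. With Ccl5, Pecam1 and Lyve1 left off those lists, the ratio was -2.30. Within the MHC class II ranges Ccl5 was at 857 and 212 CPM above the limit (-1.97) and at 228 and 266 CPM under it (0.21), so the lower level was not seen under the limit.

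On the higher side stood Osm, oncostatin M, a cytokine of the interleukin-6 family that activated monocytes release onto stromal cells. Osm (chr11:4236420-4241026, plus strand) was at 120 CPM (105 to 137) in control and 297 CPM (262 to 336) in antibody members, a log2 ratio of 1.24, and was detected in 36.2% and 48.6% of them. It was higher in C1q macrophages too, by 1.11, and in both MHC class II ranges, at 104 and 229 CPM above the limit and 206 and 375 CPM under it, with ratios of 1.06 and 0.83. At a Lyz2 minimum of 20 UMIs the ratio was 0.63, short of 2-fold. Osm and Ccl24 were the 2 higher genes among 20 tested cytokines and chemokines, and 62.3% of the Ccl24 UMIs in the antibody library came from 1 cell. Other inflammatory genes had ratios above 0 short of 2-fold: Cxcl2, which recruits neutrophils, was at 529 and 998 CPM (0.90), Ccl4 at 481 and 785 CPM (0.70), Ccl2, the main ligand of CCR2, at 252 and 393 CPM (0.62), and Il1b at 655 and 870 CPM (0.41). In all, 14 of the 20 genes were above 0, with a median of 0.33. Tnf went the other way, with 165 and 109 CPM and a ratio of -0.55.

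**Figure D4:**
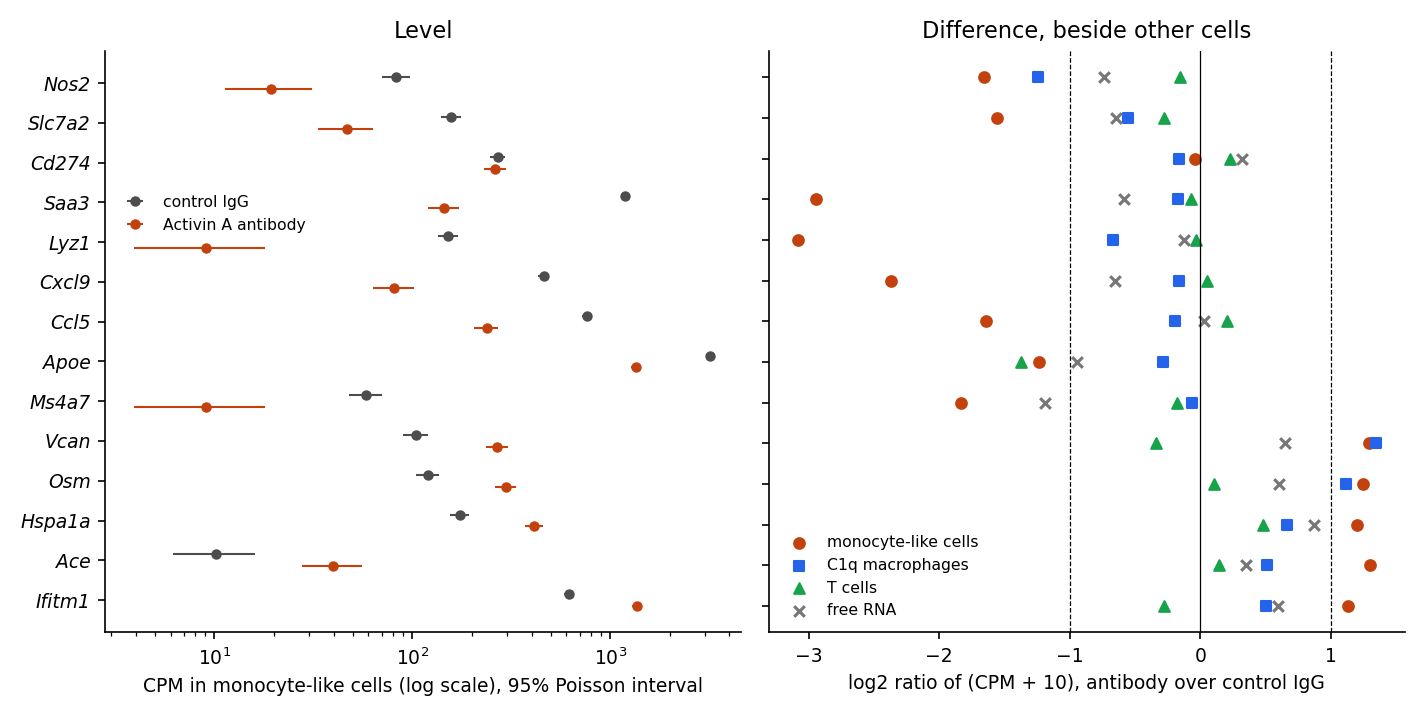
Levels of 14 genes in monocyte-like cells (left, CPM on a log scale with 95% Poisson intervals) and the log2 ratio of (CPM + 10), antibody over control IgG (right), in monocyte-like cells, C1q macrophages, T cells and free RNA, with dashed lines at 2-fold. By level, Saa3 (-2.94) and Cxcl9 (-2.37) are far lower in monocyte-like cells but near 0 in C1q macrophages, although the share of C1q macrophages with a Saa3 UMI was lower too, while Osm (1.24) is higher in both.

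Of 16 tested genes that mark the passage to a macrophage, 3 were at least 2-fold lower and 1 higher. Apoe was at 3196 CPM (3115 to 3278) and at 1352 CPM (1276 to 1431), which gave a log2 ratio of -1.23, in 85.8% and 68.6% of members. Its ratio was -0.29 in C1q macrophages, -1.38 in T cells and -0.95 in free RNA, so Apoe was also lower in cells that do not make it. Over 24 alternatives, including a subtraction of free RNA, the members' ratio lay between -1.32 and -0.93. That subtraction rested on 0 control and 6 antibody haemoglobin UMIs in members, too few to settle the part of free RNA in their level. Within the ranges the Apoe ratio was -0.79 above the MHC class II limit and -1.46 under it. Ms4a7, a membrane protein of mature macrophages, was at 58.1 CPM (47.6 to 70.1) and 9.11 CPM (3.93 to 18), a ratio of -1.83 that became -0.26 when every cell was thinned. Mertk, a receptor for apoptotic cells, was at 59.7 and 14.8 CPM, a ratio of -1.49. Apoe, Ms4a7 and Mertk were the 3 lower genes of this maturation list, and 12 of the 16 were below 0, with a median of -0.32.

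Spp1, osteopontin, was the only gene of that list called higher, at 519 and 1490 CPM. One antibody cell held 86.9% of its UMIs, and without the top cell of each library the ratio of 1.5 became -0.87. Trem2, a lipid receptor of tumor macrophages, was at 163 and 88.9 CPM (-0.81), while Mrc1, the mannose receptor, was at 145 and 161 CPM (0.14). Of 19 genes of the lysosome and lipid handling, 15 were below 0 with a median of -0.19, including the cathepsin Ctsl at 554 and 337 CPM (-0.70), and only Apoe was past 2-fold. Of 22 genes of glycolysis and hypoxia, 18 were below 0 with a median of -0.25 and none past 2-fold, but the median in C1q macrophages was -0.38.

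Classical monocyte genes had no common direction. Of 19 tested on a list that leaves out Ly6c2, Vcan and Ccr2, which the rule uses, 10 were above and 9 below 0, none past 2-fold, and the median was 0.02. Plac8 was at 2659 and 2966 CPM (0.16) and Chil3, a chitinase-like protein, at 516 and 460 CPM (-0.16). Thbs1, thrombospondin, was at 452 and 779 CPM (0.77), a difference seen under the MHC class II limit (669 and 1190 CPM) and not above it (413 and 419 CPM). Vcan, although one of the genes of the rule, was at 104 CPM (89.6 to 119) and at 269 CPM (236 to 305), which gave a log2 ratio of 1.29, and its ratio in C1q macrophages, which are chosen without regard to Vcan, was 1.34. Within the MHC class II ranges it was 1.20 above the limit and 0.31 under it.

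Among non-classical genes, Ace, the angiotensin-converting enzyme carried by patrolling monocytes, was at 10.2 CPM (6.15 to 16) and at 39.9 CPM (27.8 to 55.5), which gave a log2 ratio of 1.30, in 4.9% and 14.3% of members. After thinning Ace was detected in 2.7% and 10.4%, beside 0.2% and 0.3% of T cells. Ace was at 5.70 and 17.1 CPM above the MHC class II limit (0.79) and at 35.6 and 65.8 CPM under it (0.73), so it was past 2-fold within neither range. It was the only gene past 2-fold of 9 tested, 8 of which were above 0 with a median of 0.19. Nr4a1 was at 149 and 257 CPM (0.75), but was higher by 1.19 in C1q macrophages and by 0.72 in T cells. Fcgr4, an Fc receptor of non-classical monocytes, was the gene below 0, at 353 and 193 CPM (-0.84). The whole set of non-classical transcripts thus did not move as one.

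Of 21 tested heat shock and immediate-early genes, which tissue dissociation is known to induce, 2 were past 2-fold, both higher in antibody members. Hspa1a was at 173 CPM (155 to 193) and at 411 CPM (370 to 456), which gave a log2 ratio of 1.20, and Hspa1b at 128 and 400 CPM, a ratio of 1.57. The 2 genes are near-identical copies between which reads may be divided. Within the MHC class II ranges Hspa1a was at 138 and 274 CPM above the limit (0.94) and at 370 and 568 CPM under it (0.60), past 2-fold in neither. Fos was at 820 and 1222 CPM (0.57) and Jun at 611 and 951 CPM (0.63), and 17 of the 21 genes were above 0 and 4 below, with a median of 0.45. The median of the list was 0.65 in C1q macrophages and 0.18 in T cells. The part of handling in the cytokine values above, several of which belong to the same early response, was not tested and cannot be told apart from the treatment.

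None of 25 interferon-stimulated genes was past 2-fold. Of them 20 were above 0, and the median was 0.27, beside 0.30 in T cells and 0.01 in C1q macrophages. The median was 0.15 and 0.07 at a Lyz2 minimum of 5 and 20 UMIs, 0.13 with up to 10 C1q UMIs allowed and 0.13 at a pseudocount of 50 CPM. Isg15, a ubiquitin-like antiviral protein, was at 219 and 369 CPM (0.73), and Irf7, a transcription factor of the interferon response, at 140 and 144 CPM (0.04). Ifitm1, a membrane protein that restricts viral entry and is not among those 25 genes, was at 620 CPM (585 to 657) and at 1367 CPM (1291 to 1447), which gave a log2 ratio of 1.13, with 47.4% and 47.1% of members positive. The same share of members thus held more of it.

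The receptors through which Activin A acts were low and showed no difference beyond counting error. Acvr2a, a type II receptor that binds Activin A, was at 74.2 CPM (62.3 to 87.7) and 60.4 CPM (45.2 to 79.0), and Acvr1b, the type I receptor that passes the signal on, at 25.8 CPM (19 to 34.2) and 31.9 CPM (21.2 to 46.1). Smad2 was at 55.9 and 58.1 CPM (0.05), Smad3 at 41.9 and 33.0 CPM (-0.27), Smad4 at 68.8 and 87.7 CPM (0.31), and Smad7, an inhibitor that the pathway induces, at 55.9 and 63.8 CPM (0.16). Among other genes on the list of the activin and TGFβ pathway, Id1 was at 62.4 and 37.6 CPM (-0.60) and Id2 at 242 and 169 CPM (-0.50). Inhba itself was found in 3.0% and 5.0% of members, too few UMIs to be compared. The median of the pathway list was -0.13, beside 0.11 in C1q macrophages.

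The genes by which monocytes travel and survive differed little. None of 18 receptors of migration and adhesion and none of 16 growth factor receptors was past 2-fold, with medians of -0.03 and 0.06. Ccr2, a gene of the rule, was at 734 and 755 CPM, and Csf1r, the receptor that keeps monocytes and macrophages alive, at 391 CPM (363 to 421) and 324 CPM (287 to 363). The median of 19 transcription factors of the lineage was 0.17, none of them past 2-fold, with Cebpb at 1488 and 1778 CPM (0.26), Irf8 at 178 and 157 CPM (-0.17) and Klf4 at 166 and 234 CPM (0.47). Of 16 genes of matrix remodelling and coagulation, Timp2, an inhibitor of matrix proteases, was lower at 77.4 and 19.4 CPM (-1.57), and Fn1, fibronectin, was at 1553 and 1253 CPM (-0.31).

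Set beside C1q macrophages of the same library, the members stood out by what they lacked. No gene of 9536 was at least 4-fold higher in members in both libraries, and 10 (0.105%) were at least 4-fold lower. Ccl8, a chemokine of tissue macrophages, had log2 ratios of -5.13 in the control and -5.98 in the antibody library. Marco, a scavenger receptor, had -3.18 and -3.57, Pf4 -2.13 and -3.07, Ms4a7 -2.11 and -3.88, and Folr2, a folate receptor of resident macrophages, -2.52 and -2.06. Saa3 was also on this side, with -2.49 and -5.26. The list of classical monocyte genes had a median of 0.56 and 0.68 over 19 genes, members over C1q macrophages, none past 4-fold in both libraries. Among its higher genes, Plac8 stood higher in members by 1.76 and 2.05, Ms4a4c by 1.35 and 1.71, Hp, haptoglobin, by 1.61 and 1.53, and Ifitm6 by 1.38 and 1.99. Since C1q and the Ly6c2, Vcan and Ccr2 sum chose these cells, the list describes them and is no separate evidence of their identity. Against the 32 cells with at least 2 UMIs of Cd209a and Flt3, which mark dendritic cells, 25 of 6623 genes (0.377%) were at least 4-fold higher in members of both libraries and 9 (0.136%) lower. Chil3 was higher by 4.76 and 4.57, and Clec10a, a lectin of dendritic cells and some macrophages, was lower, with -3.46 and -3.59. Against all other kept cells, 113 of 6251 genes (1.81%) were at least 4-fold higher in both libraries, led by Pid1, Plcb1, Gm9733 and Chil3.

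Clustering the members on their own gave 5 sub-clusters that describe how they varied, with leading genes taken from the same cells. Sub-cluster 0 of 121 cells led by Lpl and Gbp2b, sub-cluster 1 of 112 led by Cxcl10, Ly6i and Cxcl9, and sub-cluster 2 of 65 led by Itga9 and Saa3 were rich in MHC class II, with 26552, 33285 and 31912 CPM over the list. Sub-cluster 3 of 57 cells led by Stxbp6 and Hspa1b and sub-cluster 4 of 53 led by Thbs1, Dmkn and Osm had 2101 and 1959 CPM. Sub-cluster 3 held Ace at 95.2 CPM and Osm at 116 CPM, and sub-cluster 4 Ace at 7.01 CPM and Osm at 669 CPM, so the members low in MHC class II fell into 2 sub-clusters. Median depth ran from 4785 UMIs in sub-cluster 3 to 7981 in sub-cluster 2. The libraries lay unevenly over the sub-clusters, with 77, 88, 58, 30 and 15 control and 44, 24, 7, 27 and 38 antibody members in sub-clusters 0 to 4. Sub-cluster 2, whose leading genes include Saa3 and Nos2, thus held 58 and 7 members, and sub-cluster 4, with Thbs1 and Osm, 15 and 38. These sizes follow in part from the same genes that differ between the libraries, so they are no separate result, and their part in the levels above was not tested.

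**Figure D5:**
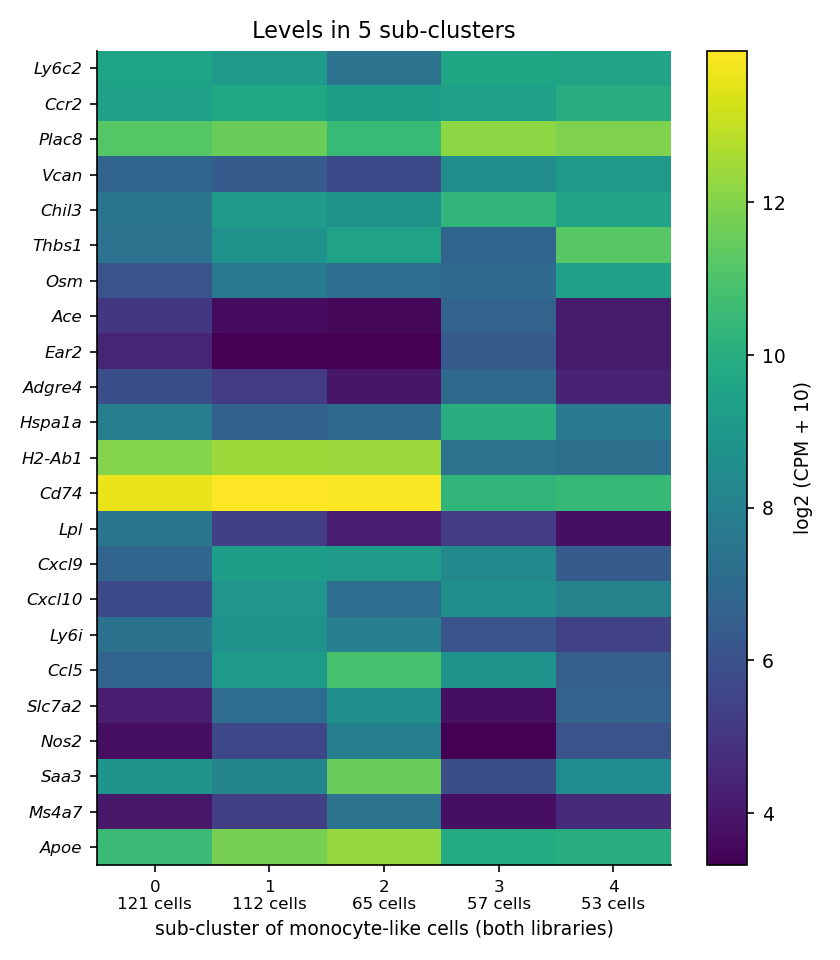
Level of 23 genes, as log2 of (CPM + 10) on the color scale, in 5 sub-clusters of the 408 monocyte-like cells of both libraries, numbered 0 to 4 on the x axis with their cells. Cd74 and H2-Ab1 are low in sub-clusters 3 and 4, which differ from each other in Ace, Thbs1 and Osm.

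Single members with transcripts of cell division or of other cells decided several of the largest ratios. Of the 12 genes with the highest ratios, the cell cycle genes Ube2c (5.91 and 144 CPM) and Cenpa (30.6 and 132 CPM) owed 94.4% and 73.3% of their antibody UMIs to 1 cell. Steap1 (0.538 and 92.3 CPM) came wholly from 1 cell. The list of 10 cancer cell genes summed to 280 and 600 CPM, led by Lgals7, with 2 and 1 members holding 5 or more of its UMIs and one cell of 417 and one of 506 UMIs. On the lower side, the matrix gene Dcn (92.5 and 5.70 CPM) owed 58.1% of its control UMIs to 1 cell, and the fibroblast list of 14 genes summed to 382 and 78.6 CPM, with 3 and 2 members at 5 or more UMIs and 361 UMIs in the top control cell. The list of mast cells and basophils reached 5 UMIs in no member. Saa3, Cxcl9, Slc7a2, Osm, Hspa1a and Ace stayed past 2-fold when the top cell of each gene was left out.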

How the data were processed

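The authors deposited unnormalized UMI counts for every barcode of each library. The file headers name Cell Ranger 4, whereas the submitters' processing notes name Cell Ranger 7.0.1 and the build mm10. Labels and methods name different 10x chemistries. The libraries held 98174850 (control IgG) and 74117462 UMIs. Kept cells had 1000 to 8500 detected genes, from 1000 up to 100000 UMIs and a mitochondrial share of no more than 10%, with a median of 5719 and 4660 UMIs. No doublet caller was run. Counts of members were summed per library, scaled to CPM and compared as log2 of (CPM + 10) for genes with at least 50 UMIs over both, called past 2-fold (4-fold between cell classes). T cells had at least 3 Cd3 UMIs and under 10 Lyz2 UMIs. Members were sub-clustered with scanpy 1.11.5 (1000 variable genes, 15 components, 15 neighbours, Leiden resolution 0.5). Positions are those of GENCODE M21 (GRCm38). Some genes named by the rule are not reported here. The genes named are members of the lists, the 12 highest and 12 lowest ratios past the fold, and the leading genes of classes and sub-clusters. Members, lists, the MHC class II limit and the sub-cluster settings were chosen with earlier results of these data known. The comparison was tested on simulated data. Alternatives covered the limits of the rule, depth, pseudocount, filters, scaling (median ratio, TMM in edgeR 4.0.16) and free RNA.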

Additional observations from a re-analysis of the deposited data

Results flagged for a closer look

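For 12 genes the antibody and control libraries differed past 2-fold in one direction in monocyte-like cells and in the other direction in C1q macrophages. Over all genes, 46 of 6256 (0.735%) were higher and 57 (0.911%) lower in monocyte-like cells. In C1q macrophages 100 of 8807 (1.14%) were higher and 15 (0.17%) lower. The number of genes tested in both classes, and of those past 2-fold on the same side in both, is not given here. The difference between the 2 cell classes was not tested, since each rests on 1 library per group. Of the 12, 5 are on the fibroblast list (Bgn, Col1a2, Col3a1, Dcn and Mgp). In log2 ratios of (CPM + 10), the monocyte-like cells had -2.04 for Bgn, -1.85 for Ccdc80, -1.50 for Col1a2, -1.72 for Col3a1, -2.71 for Dcn and -1.65 for Mgp, where the C1q macrophages had 1.51, 2.10, 4.37, 4.86, 2.79 and 3.14. In the same order of classes, Ptgis had -1.81 and 2.04, Serping1 -1.73 and 1.45, Tshz2 -2.0 and 1.84, Hspb1 -1.87 and 1.29, Slpi -1.10 and 1.67, and the long transcript Gm16124 -1.15 and 1.21. In the control members, 1 cell held 96.3% of the Ptgis UMIs, 93.0% of those of Hspb1, 78.1% of Slpi, 73.2% of Tshz2, 72.3% of Col1a2, 62.1% of Bgn and 58.1% of Dcn. Col3a1 was more widely spread, with 35.7% of its UMIs in 1 cell and UMIs in 12.7% of control and 6.4% of antibody members. Without the top cell, Slpi was at 0.65 and Col3a1 at -1.40. The part of single cells in the ratios of the C1q macrophages, 145 of them in the antibody library, was not examined. Bgn and Tshz2 were at 0 UMIs in antibody members, so their ratios depend on the pseudocount.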

How the results depend on the processing

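With 1 library per group no library could be left out. No paired analysis was possible because there is 1 library for either treatment and no result comes from a test. The ratio of the share of monocyte-like cells, -0.48 over all cells, was -0.067 over cells without T, NK and B cells and 0.65 over Lyz2-high cells, and lay between -0.54 and -0.30 under the other 13, with an interval across 0 (-0.63 to 0.021) at a Ly6c2, Vcan and Ccr2 minimum of 4 UMIs and (-0.62 to 0.021) without cells holding 5 UMIs of another type's list. Genes higher with the antibody, 46 as reported, numbered 26 in cells of 2000 to 20000 UMIs, 22 without cells holding 5 UMIs of another type's list, 27 after thinning, 77 and 18 at pseudocounts of 1 and 50 CPM, 80, 11 and 105 at a minimum of 20, 200 and 1 UMIs, and 25 by the mean of each cell's CPM. Lower genes, 57 as reported, numbered 28 without those cells, 30 after thinning, 119 and 13 at the pseudocounts of 1 and 50 CPM, 18 and 86 at the minimum of 200 and 1 UMIs, and 92 with free RNA subtracted, taken from 0 and 6 haemoglobin UMIs as 0 and 9.12% of the members' UMIs. Genes apart from C1q macrophages, 10 as reported, numbered 30 and 2 at pseudocounts of 1 and 50 CPM. A set of 24 genes past the fold, not the same as all genes named above, was also followed. Of this set, 8 were past 2-fold in cells of 2000 to 20000 UMIs and 7 without cells of other lists. The number was 7 after thinning, 14 at a pseudocount of 50 CPM and 9 by the mean of each cell's CPM. Taken singly, Saa3, Cxcl9, Lyz1, Vcan, Hspa1a and Hspa1b were each past 2-fold on the same side under all 24 alternatives. Of 2 alternatives chosen after seeing the data, leaving out the top member gave 14 higher genes and 9 genes of the set of 24. Removing cells by the other lists without Ccl5, Pecam1 and Lyve1 gave 25 higher, 33 lower and 7 genes of that set. Spp1 turned, to -0.81, -0.24, -0.56 and -0.28 (depth range, other lists, thinning, mean of CPM) and, in the added alternatives, -0.87 and -0.49. Over 24 alternatives Saa3 ranged from -4.25 to -1.001, Cxcl9 from -2.55 to -1.96, Ccl5 from -6.27 to -0.61, Nos2 from -2.29 to -0.94, Osm from 0.63 to 1.48 and Ace from 0.58 to 1.87, and the MHC class II median from -0.76 to -0.58. The difference in the share of members with little MHC class II, 29.0 percentage points, ranged from 24.5 to 30.8. Why counts moved was tested for none of these. Depth limits precision for genes of few UMIs such as Ace, and the few cells that hold Nos2 and Lyz1 limit theirs.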
